A study of Mus musculus with 4 samples.

Results

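MHC-II-high Gpnmb-low macrophages of the healing mouse infarct were examined in the 3 infarct libraries of a single-cell RNA-sequencing study of the heart. A cell was eligible when it held 500 to 40000 unique molecular identifiers (UMIs, the counted transcript molecules) and over 200 genes, at least 30 UMIs per 10000 of the complement genes C1qa, C1qb and C1qc together, at most 1 UMI of Gpnmb and no UMI of Cd209a or Ccr7. Members were the 25% of the eligible cells of each library with the highest summed level of H2-Aa, H2-Ab1 and H2-Eb1, the chains of the classical MHC class II molecules. There were 5217 members, namely 1615, 1891 and 1711 cells of infarcts 1, 2 and 3, among 20872 eligible and 31295 filtered infarct cells, and the series held 41533 filtered cells in all. They made up 15.5%, 17.5% and 16.9% of the filtered cells of infarcts 1, 2 and 3. The lowest 25% of the same ranking in the same library, also 5217 cells and called MHC-II-low here, served as the comparator.

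All cells came from CSF1R-EGFP+ mice of 12 to 16 weeks, in which the Csf1r promoter drives EGFP, and were sorted as EGFP+ after exclusion of Ly6G+ neutrophils. Infarcts were represented by 3 libraries, each from 1 heart taken 7 days after ligation of the left coronary artery, with the remote zone cut away before digestion. The baseline group was 1 library of 3 pooled hearts without surgery, so values at baseline have no replicate. The infarct libraries held 92005369, 97944428 and 88157753 UMIs, and the baseline library 71093963. Pairs of libraries shared 26 to 34 cell barcodes, at most 0.330% of a library.

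Classical MHC class II molecules are pairs of an alpha and a beta chain that carry peptides from engulfed proteins to the surface of antigen-presenting cells, where CD4+ T cells read them. The invariant chain Cd74 guides the pair to endosomes, H2-DM exchanges the placeholder peptide and H2-O restrains H2-DM. Ciita is the coactivator without which these genes are barely transcribed. In the mouse heart, macrophages with high class II are commonly set apart from Lyve1+ resident macrophages and are in part derived from Ccr2+ monocytes.

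Class II level spanned a wide range among the eligible cells, with fewer cells in the middle of a log10 axis than on either side. In infarcts 1, 2 and 3 the middle fell to 64, 64 and 73 cells per bin. The bins that start at log10 0.3 held 128, 231 and 164 cells, and those at 2.45 held 287, 241 and 225. The members had median levels of 298, 309 and 278 class II UMIs per 10000 in infarcts 1, 2 and 3, whereas the MHC-II-low cells had medians of 1.68, 1.04 and 1.19. The lowest members held 207.47, 187.131 and 167.51 UMIs per 10000, and the cells just below them 207.44, 187.117 and 167.32. Thus 417, 351 and 290 cells lay within 10% of the lower limit. The limit is set by rank, so close neighbours cannot decide if the members are a separate type, which was not tested. In the MHC-II-low cells, 25.8%, 37.4% and 32.8% of cells had no class II UMI. These levels chose the cells and are given as a description.

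**Figure D1:**
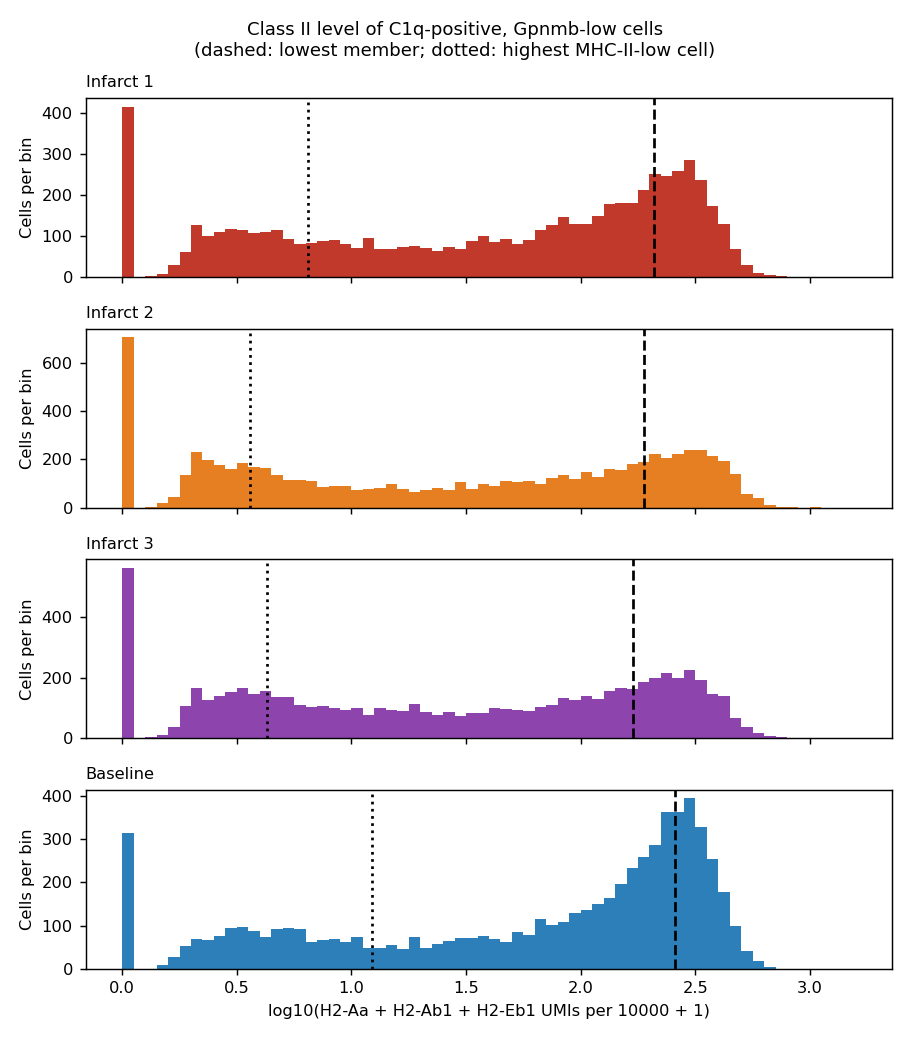
Histograms of the summed level of H2-Aa, H2-Ab1 and H2-Eb1 on a log10 axis (UMIs per 10000 plus 1) over the C1q-positive, Gpnmb-low cells of each library, with cells per bin on the vertical axis. The dashed line marks the lowest member and the dotted line the highest MHC-II-low cell, both set by rank. In the infarcts, cells per bin were fewer in the middle of the axis than on either side, and no gap lay at the dashed line. The median over eligible cells was 63.4, 32.8 and 29.7 UMIs per 10000 in infarcts 1, 2 and 3.

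The members carried macrophage genes, although the C1q limit of the rule had favoured such cells. Csf1r, the receptor for macrophage colony-stimulating factor, was counted at 844, 791 and 852 CPM in infarcts 1, 2 and 3, where CPM is the UMI count scaled to a total of 1000000 UMIs of the summed cells, without the 9 genes of the rule and mitochondrial genes. Adgre1 (F4/80) was at 501, 526 and 493 CPM, against 41.4, 48 and 40.0 CPM in Cd209a-positive dendritic cells of the same hearts. Flt3, a receptor that defines dendritic cells, had a UMI in 4.71%, 4.18% and 2.98% of members and in 48.4%, 52.3% and 46.7% of those dendritic cells. Members and MHC-II-low cells were sequenced to similar depth, with medians of 8411, 8176 and 8318 UMIs per member and 8120, 8512 and 8885 per MHC-II-low cell. The mitochondrial share was slightly lower in the members, with medians of 3.16%, 2.96% and 2.50% against 3.83%, 3.57% and 2.98%.

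The remaining class II genes, which the rule did not use, were higher in the members of every heart. Cd74 was at 26592, 27645 and 27203 CPM in the members of infarcts 1, 2 and 3 and at 367, 234 and 294 CPM in the MHC-II-low cells (log2 fold change 6.67, SE 0.13, adjusted p = 1.17e-08, edgeR quasi-likelihood test with Benjamini-Hochberg adjustment, as for all adjusted p below). The gap exceeded the spread between hearts in all 3 of them. Every member had a Cd74 UMI, but so had 74.2%, 68.6% and 76.9% of the MHC-II-low cells. Ciita was at 217, 165 and 166 CPM in the members and at 5.02, 2.88 and 3.79 CPM in the MHC-II-low cells (log2 fold change 5.70, SE 0.08, adjusted p = 3.46e-09), and it was detected in 68.9%, 59.9% and 60.7% of members. In the MHC-II-low cells 3.16%, 2.17% and 2.51% of cells had a Ciita UMI.

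Of the 7 listed genes for class II chains and peptide loading, 6 were abundant enough to be tested and all 6 were higher, with a median log2 fold change of 3.08. Over all 11628 genes tested, 9.85% were higher and 10.1% lower in the members at an adjusted p under 0.01, and the median change was -0.01. The peptide exchange subunits H2-DMb1 (726, 724 and 708 CPM against 46.5, 51.5 and 45.7) and H2-DMa (776, 724 and 716 CPM against 101, 105 and 109) had log2 fold changes of 4.04 (SE 0.05) and 2.95 (SE 0.05), with adjusted p = 3.46e-09 and 7.23e-09. The scarce H2-DMb2, H2-Oa and H2-Ob were at 8.18 ± 1.11, 6.46 ± 1.48 and 8.15 ± 0.981 CPM (mean ± SD, n = 3) in the members and had log2 fold changes of 2.54, 3.21 and 2.44. H2-DMb1 and H2-DMb2 are close copies whose reads may be split between them. H2-Eb2 was too low to be tested.

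The proximal promoters of the class II genes share short elements, and the 5 stretches shown here are the ones in which these were read. They come from the RefSeq promoter windows of the GRCm38.p6 build, which run from 250 bases before to 50 bases after each start site, and lie on chromosome 17. Of 10 class II genes searched for, 8 were matched. The letters AACNNATG, part of the X box where RFX proteins bind, and GATTGG, the core of the Y box bound by NF-Y, are in capitals. Sequences run 5′ to 3′ on the strand of the gene.
H2-Eb1 (chr17:34305758-34305832, plus strand): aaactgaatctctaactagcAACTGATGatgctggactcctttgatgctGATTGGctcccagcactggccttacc
H2-DMb1 (chr17:34153079-34153154, plus strand): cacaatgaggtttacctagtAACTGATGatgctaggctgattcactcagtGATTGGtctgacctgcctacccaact
H2-DMb2 (chr17:34145108-34145183, plus strand): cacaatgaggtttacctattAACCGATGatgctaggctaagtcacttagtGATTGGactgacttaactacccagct
H2-Ob (chr17:34238800-34238872, plus strand): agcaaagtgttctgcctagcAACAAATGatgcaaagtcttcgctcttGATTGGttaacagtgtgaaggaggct
H2-Aa (chr17:34287847-34287922, minus strand): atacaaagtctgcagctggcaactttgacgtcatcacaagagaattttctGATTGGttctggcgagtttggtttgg

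GATTGG was found on either strand in a window of all 8 genes and in 16.1% of the 32851 RefSeq promoter windows of 300 bases. AACNNATG was in 8.86% of windows. The pair on 1 strand, with GATTGG starting 25 to 35 bases after AACNNATG, occurred in 12 windows (0.0365%), of which 5 belonged to class II genes (H2-Eb1, H2-Eb2, H2-DMb1, H2-DMb2 and H2-Ob). The other 7 included Dpm1 and Mocs3, which were tested and not called (log2 fold changes 0.08 and -0.03). The H2-Aa and H2-Oa windows and 1 of the 2 H2-DMa windows held GATTGG without that pair, and the other H2-DMa window held neither motif. The letters were settled after these windows had been read, so the counts are a description, and a match of letters is not a binding site.

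Among the 9 listed regulators of class II transcription, 3 were higher and none lower. Besides Ciita these were Rfx5, a subunit of the X-box factor (log2 fold change 0.67, adjusted p = 0.00811), and Irf8 (0.27, adjusted p = 0.00334). The list median was 0.21. The call of Rfx5 was lost under 10 of 19 alternatives, among them leaving out infarct 2 or infarct 3. That of Irf8 was kept under 15 of 19. It was lost without infarct 2, with no replicate block, with library size alone and after thinning to 2000 UMIs. The difference in Rfx5 was small beside that of Ciita, at 10.4 ± 1.44 against 7.18 ± 0.889 CPM.

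The proteases of the endosome split. Of 9 tested genes for antigen processing, 3 were higher and 4 lower, with a median of -0.08. Ctss, which trims the invariant chain in antigen-presenting cells, was at 3824, 4032 and 4123 CPM in the members against 3171, 3413 and 3211 CPM (log2 fold change 0.43, SE 0.04, adjusted p = 5.95e-05), with groups that did not overlap. Ctsh (0.54) and March1, the ligase that sends surface class II for degradation (0.37), also rose. The lysosomal aspartic protease Ctsd moved the other way, at 838, 879.7 and 899.8 CPM in the members against 3506, 3224 and 3025 CPM (log2 fold change -1.76, SE 0.06, adjusted p = 4.03e-07). Ctsl (-0.91), Ctsb (-0.80) and the asparaginyl endopeptidase Lgmn (-0.31) were lower as well.

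A total of 1145 genes were higher and 1179 lower in the members, 242 and 356 of them by at least 2-fold. Without infarct 2 the count fell from 2324 to 1401 genes. Among genes named here, those that were no longer called without infarct 2 were Rfx5, Irf8, Lgmn, Icosl, Irf1, Plac8, Tnf, Cxcl2, Apoe, Adgre1, Cx3cr1, Irf4, Mitf, Hif1a, Pgk1, Pkm, Pdgfb, Tgfb1, S100a9 and Pecam1. Without infarct 1 they were Cd40, Fcgr1, Apoe, Adgre1, Irf4 and Tgfb1, and without infarct 3 Rfx5 and Pecam1. Scaling by library size alone, an alternative chosen after the data were seen, gave 716 higher and 2326 lower with a median change of -0.14, so the share of higher genes among those called was 23.5% instead of 49.3%. Apart from the class II genes, the largest rises by the naming rule were in receptors of myeloid cells. The rule took the 15 highest and 15 lowest changes among genes at 20 CPM or more that moved alike in all 3 hearts.

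Mgl2, a galactose-binding C-type lectin, was at 77.9, 73.5 and 115 CPM in the members of infarcts 1, 2 and 3 and at 5.10, 9.28 and 9.31 CPM in the MHC-II-low cells (log2 fold change 3.61, SE 0.14, adjusted p = 6.17e-07). It was found in 15.8%, 14.8% and 17.5% of members, so most members had no Mgl2 UMI at this depth, and it is also on the list of dendritic cell markers below. Clec4b1, another lectin, reached 132, 175 and 154 CPM against 13.5, 16.9 and 15.3 CPM (log2 fold change 3.47, SE 0.06, adjusted p = 5.70e-09). The remaining surface receptors in this group were Slamf8 (log2 fold change 3.07), the integrin chain Itgax, or CD11c (2.68), Sirpb1a (2.64) and the orphan receptor Gpr141 (2.61). Plbd1 (2.93) was higher as well. In each of these 5 genes the lowest infarct of the members lay above the highest of the MHC-II-low cells.

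Ccr2, the receptor that draws monocytes out of the marrow and into injured tissue, was counted at 1242, 949 and 993 CPM in the members and 257, 184 and 199 CPM in the MHC-II-low cells (log2 fold change 2.45, SE 0.04, adjusted p = 7.23e-09). A Ccr2 UMI was present in 91.3%, 87.7% and 88.3% of members and 36.8%, 31.7% and 34.4% of the MHC-II-low cells. With every cell thinned to 2000 UMIs, the shares were 76.5%, 69.2% and 69.4% and 22.2%, 18.3% and 19.7%. Most members therefore carried Ccr2 transcripts, in all 3 hearts. Il1b, the inflammatory cytokine interleukin-1 beta, followed the same course at 1292, 1463 and 1296 CPM against 284, 331 and 244 CPM (log2 fold change 2.38, SE 0.06, adjusted p = 7.92e-08).

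Cxcl9, an interferon-gamma-induced ligand for T cells, was at 177, 39.6 and 53.4 CPM in the members against 4.30, 17 and 5.24 CPM (log2 fold change 3.19, SE 0.55, adjusted p = 0.00235). Infarct 1 stood far above the others. Cxcl9 came from few cells, 6.50%, 2.54% and 2.45% of members.

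**Figure D2:**
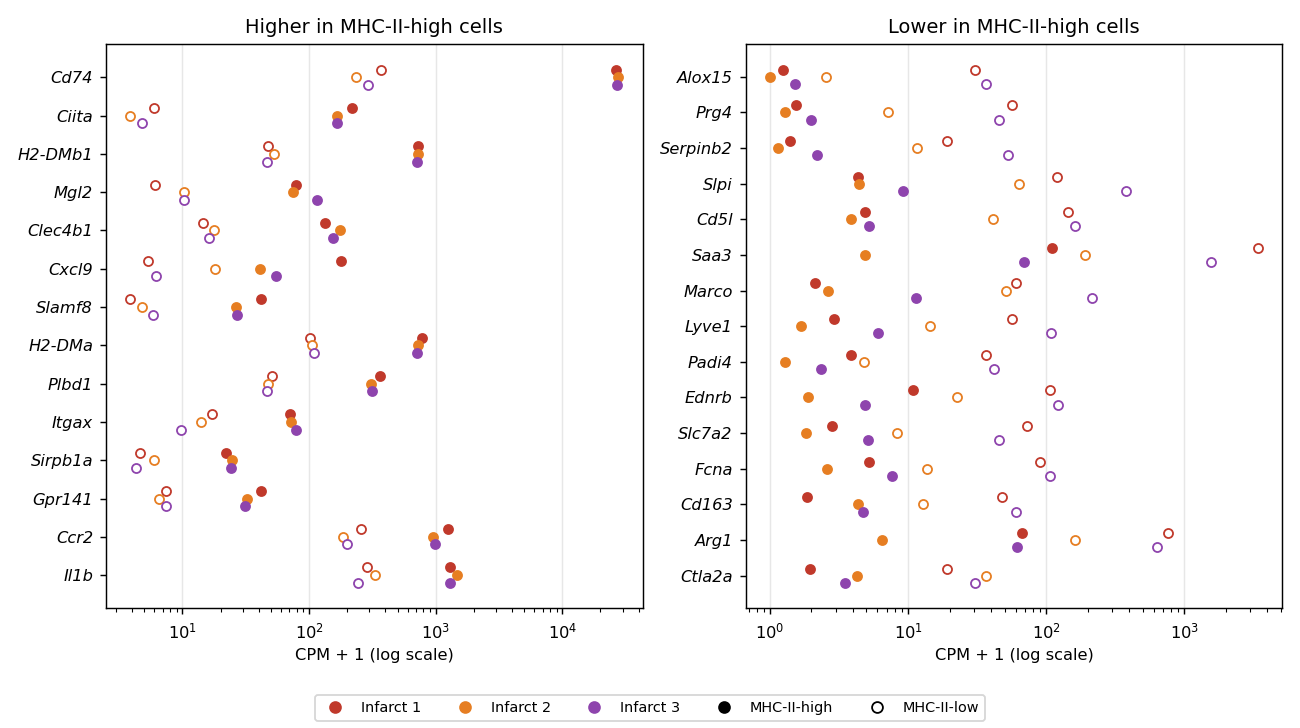
Levels of 14 genes higher and 15 lower by the naming rule in the members, as CPM plus 1 on a log axis, with filled points for MHC-II-high cells and open points for MHC-II-low cells of the same infarct, coloured by infarct. Filled and open points of a gene do not overlap in the left panel; in the right panel the open points of infarct 2 lie lowest for most genes, as for Saa3 at 3421, 189.5 and 1562 CPM in infarcts 1, 2 and 3.

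Genes for costimulation and for class I presentation rose with class II, by smaller amounts. Of 10 costimulatory and checkpoint ligands tested, 7 were higher and none lower, with a median of 0.56. Cd86, the ligand of CD28, was at 165, 173 and 155 CPM against 110.4, 118 and 97.5 CPM (log2 fold change 0.74, SE 0.05, adjusted p = 1.51e-05), and the groups did not overlap. Tnfsf9 (0.79), Cd83, which stabilises surface class II (0.65), Cd72 (0.64), Cd40 (0.48), Havcr2 (0.43) and Icosl (0.40) also rose. Of the 14 genes for class I presentation, 11 were higher and none lower, with a median of 0.36. H2-T23, a nonclassical class I chain, led them at 380.2, 413 and 373 CPM against 185, 263 and 217 CPM (log2 fold change 0.96, SE 0.07, adjusted p = 1.88e-05), followed by the immunoproteasome subunit Psmb8 (0.68) and the peptide transporter Tap1 (0.61). The classical chain H2-K1 changed by 0.31 and B2m by 0.23, while H2-D1 had a value of 0.14 and did not pass the threshold (adjusted p = 0.0179).

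Interferon-gamma response genes were higher in 7 of 13 tested and lower in none, with a median of 0.40. Beside Cxcl9 these included the guanylate-binding proteins Gbp4 (2.00) and Gbp3 (0.60), the factor Irf1 (0.40) and the high-affinity Fc receptor Fcgr1 (0.37). Of the 14 type I interferon genes, 4 were higher and none lower. Irf7, the factor that amplifies that response, was at 117, 184 and 129.7 CPM against 88.3, 153 and 116 CPM (log2 fold change 0.42, SE 0.05, adjusted p = 5.11e-04). Isg15 had values of 158, 190.3 and 127 against 84.6, 191 and 97.1 CPM and did not pass (adjusted p = 0.0135).

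Genes of resident cardiac macrophages were lower in the members. Of 12 tested, 10 were lower and none higher, with a median of -2.12. Lyve1, the hyaluronan receptor that marks resident macrophages along vessels, was at 1.89, 0.689 and 5.02 CPM in the members of infarcts 1, 2 and 3 and at 55.3, 13.5 and 107 CPM in the MHC-II-low cells (log2 fold change -4.39, SE 0.11, adjusted p = 8.99e-08). The haemoglobin scavenger receptor Cd163 was at 0.868, 3.38 and 3.75 CPM against 46.9, 11.8 and 59.3 CPM (log2 fold change -3.60, SE 0.42, adjusted p = 3.03e-04). In the MHC-II-low cells both genes were lowest in infarct 2. Few cells held either. A Lyve1 UMI was seen in 6.56%, 1.37% and 9.47% of the MHC-II-low cells and 0.557%, 0.264% and 0.701% of members. For Cd163 the members' shares, 0.619%, 1.16% and 1.75%, were below the 2.73%, 2.54% and 7.14% of dendritic cells, which should lack it, and are read as background.

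The phosphatidylserine receptor Timd4 (-2.27), the folate receptor Folr2 (-2.78), Gas6, a bridge between dying cells and their receptors (-1.82), the transglutaminase F13a1 (-1.66) and the ficolin Fcna (-3.87) were lower too. Timd4 was scarce in both groups, at 0.613 ± 0.215 against 3.47 ± 2.82 CPM. The mannose receptor Mrc1 fell least, from 610.0, 683 and 677 CPM in the MHC-II-low cells to 393, 381 and 398 CPM in the members (log2 fold change -0.61, SE 0.05, adjusted p = 3.40e-05). Siglec1 did not pass at -0.33 (adjusted p = 0.0115). Retnla, which belongs to the same list, was at 27.8, 46.9 and 38.6 CPM in the members and 30.4, 0.192 and 14 CPM in the MHC-II-low cells, where infarct 2 was near 0 (log2 fold change 1.72, SE 0.68, adjusted p = 0.0857). Its direction reversed when the top 10% was set against the bottom 10% (log2 fold change -2.37).

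The 15 genes named as lowest by the rule were of several kinds. Saa3, an acute-phase apolipoprotein, was at 109.6, 3.86 and 68.4 CPM in the members against 3421, 189.5 and 1562 CPM in the MHC-II-low cells (log2 fold change -4.74, SE 0.15, adjusted p = 2.42e-07). It had a UMI in 30.7%, 2.33% and 17.1% of members and in 25.7%, 4.57% and 19% of dendritic cells, which should lack it, so the members' share in infarcts 2 and 3 is read as background. The antiprotease Slpi (-4.99), the scavenger receptor Marco (-4.53) and the lipid-binding Cd5l (-4.76) were lower too. So were the lipoxygenase Alox15 (-6.26), Prg4, or lubricin (-5.68), Serpinb2 (-5.40), the citrullinating enzyme Padi4 (-4.02), the endothelin receptor Ednrb (-3.99) and Ctla2a (-3.50).

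Arg1, which breaks down arginine, was at 65.8, 5.45 and 61 CPM in the members against 757, 161 and 634 CPM (log2 fold change -3.59, SE 0.20, adjusted p = 5.57e-06), and the arginine transporter Slc7a2 at 1.81, 0.827 and 4.12 CPM against 71.6, 7.30 and 44.9 CPM (log2 fold change -3.97). For Saa3, Arg1, Lyve1, Alox15, Prg4 and Cd5l the MHC-II-low cells of infarct 2 were below those of infarcts 1 and 3, although they remained above the members of that heart. Sums over cells alone do not separate fewer expressing cells from less RNA per cell. An Arg1 UMI was found in 31.9%, 10.9% and 27.1% of the MHC-II-low cells and 11.8%, 3.44% and 8.18% of members. For Saa3 the shares were 41.7%, 4.76% and 29.6% against 30.7%, 2.33% and 17.1%. Background UMIs can enter these shares, and the part of each in the change was not tested.

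The monocyte list split, with 4 genes higher and 4 lower of 14 tested (median -0.42). Together with Ccr2, the monocyte antigens Ly6c2 (58.5, 65.6 and 44.9 CPM against 12.6, 26.4 and 12.7 CPM, log2 fold change 1.87, SE 0.14, adjusted p = 2.61e-05), Plac8 (269.9, 116 and 84.2 CPM against 51.2, 48.5 and 53.3 CPM, log2 fold change 1.59) and Ms4a4c (1.55) were higher. Thrombospondin Thbs1 (-1.04) was lower. Per cell, the summed level of the monocyte list had medians of 18.3, 14.0 and 15.0 UMIs per 10000 in the members. The medians were 8.55, 5.06 and 8.24 in the MHC-II-low cells and 44.9, 36.7 and 31.2 in the dendritic cells. Ccr2 alone, at 1061 ± 158 against 213 ± 38.8 CPM, weighs heavily in the sums of members and MHC-II-low cells. They do not show a rise of the list as a whole.

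The inflammatory list gave 5 higher and 5 lower of 14, with a median of -0.05. Along with Il1b, the members were higher in Ptgs2, or cyclooxygenase 2 (0.65), the inflammasome sensor Nlrp3 (0.57), Tnf (0.48) and the neutrophil chemokine Cxcl2 (0.31). The lower genes were Arg1, Saa3, Slpi and Marco, described above, and fibronectin, Fn1, at 512, 130.5 and 215 CPM against 2045, 507 and 1966 CPM (log2 fold change -2.24, SE 0.21, adjusted p = 7.47e-05).

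Chemokine ligands were lower more often than higher, 7 against 3 of 14 tested, with a median of -0.66. Ccl5, a ligand for T cells and monocytes, was higher at 157, 114 and 120.4 CPM against 30.0, 58.3 and 35.2 CPM (log2 fold change 1.81, SE 0.20, adjusted p = 2.45e-04), as were Ccl3 (0.65) and Ccl4 (0.67). The platelet factor Pf4 was lower at 226, 320.1 and 268 CPM against 1097, 1452 and 1357 CPM (log2 fold change -2.13, SE 0.05, adjusted p = 2.08e-08), and the groups lay far apart. Ccl2, the ligand of Ccr2, was at 220.0, 182 and 159 CPM against 338, 342 and 242 CPM (log2 fold change -0.58, SE 0.07, adjusted p = 2.39e-04), so receptor and ligand moved in opposite directions. Ccl7 (-1.24), Ccl8 (-1.40), Ccl24 (-2.24), Cxcl14 (-1.21) and the B-cell attractant Cxcl13 (-6.58) were also lower. Cxcl13 was near 0 in the members, at 0.148 ± 0.199 against 17.1 ± 14.1 CPM, so the size of its change is uncertain. Among 8 receptors, Cxcr3, which binds Cxcl9 (1.10), Ccrl2 (0.62) and the fractalkine receptor Cx3cr1 (0.28) were higher. The scavenging Ackr3 (-4.48) was lower, and scarce in both groups, at 0.258 ± 0.239 against 6.45 ± 4.8 CPM.

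Reparative and lipid-handling genes were lower in 13 of 22 and higher in 1, with a median of -0.64, even though every compared cell had at most 1 Gpnmb UMI. Spp1, or osteopontin, was at 196, 250.0 and 237 CPM against 1511, 1644 and 980.0 CPM (log2 fold change -2.44, SE 0.15, adjusted p = 8.44e-06), and the fatty acid receptor Cd36 at 17.7, 11.9 and 18.6 CPM against 109, 54.7 and 113 CPM (log2 fold change -2.36, SE 0.09, adjusted p = 4.81e-07). Trem2 (-0.71), Apoe (-0.33) and the growth factor Igf1 (-1.47) were lower by less. The elastase Mmp12 was the single gene to rise (39, 63.8 and 82.3 CPM against 19.6, 28.8 and 14.8 CPM, log2 fold change 1.67, SE 0.24, adjusted p = 8.50e-04). A single Gpnmb UMI, used by the rule only as a ceiling, was found in 5.2%, 4.81% and 7.77% of members and 15.8%, 15.2% and 17.6% of the MHC-II-low cells.

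**Figure D3:**
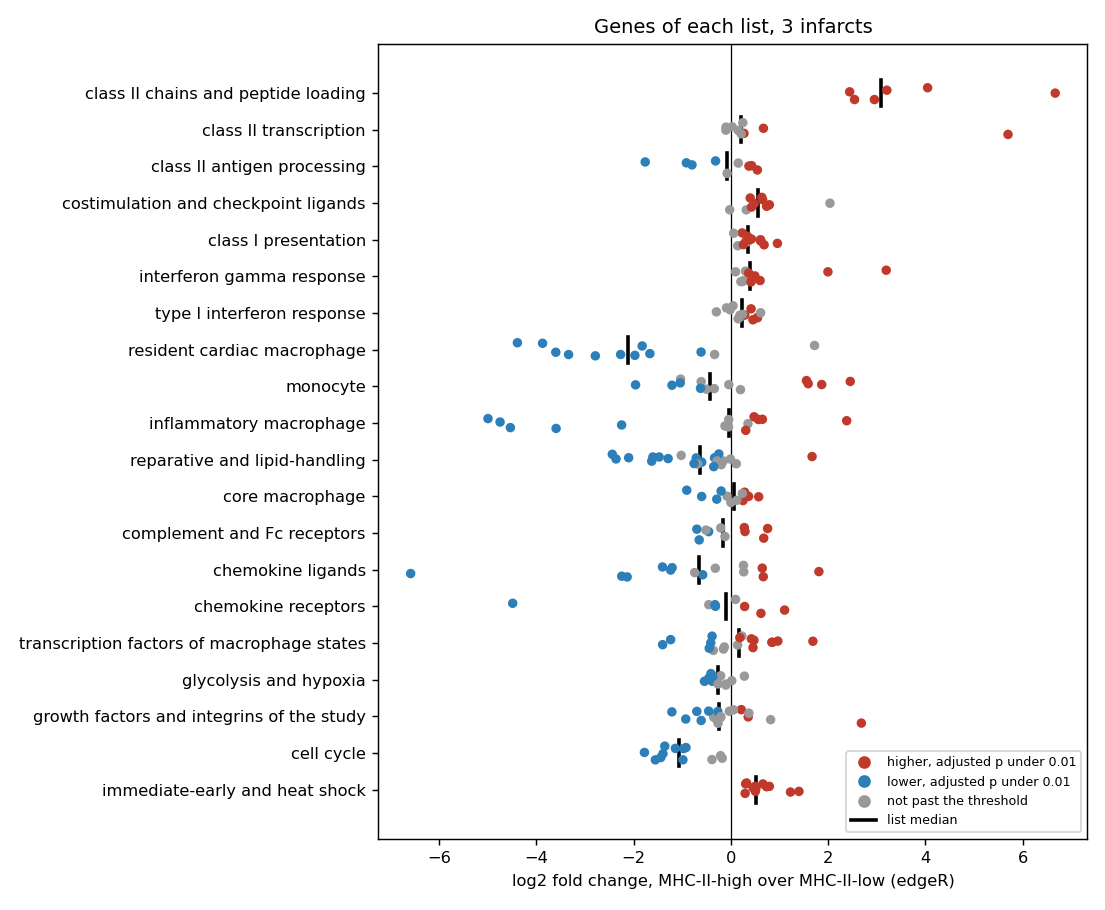
Each point is a tested gene of a list, placed by its log2 fold change of members over the MHC-II-low cells on the horizontal axis and coloured by call (red higher, blue lower, grey not past an adjusted p of 0.01), with a bar at the list median. Class II chains lie farthest right (median 3.08), resident genes farthest left (median -2.12), and all 12 immediate-early and heat-shock genes lie to the right of 0.

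Core macrophage genes did not move together, with 4 higher and 4 lower of 12 and a median of 0.06. The apoptotic cell receptor Mertk (37.9, 40.5 and 45 CPM against 86.6, 76.2 and 92.1 CPM, log2 fold change -0.91, SE 0.07, adjusted p = 2.12e-05), the factor Maf (-0.60) and Adgre1 (-0.29) were lower. Aif1 (0.57) and Cx3cr1, of the receptors above, were higher. Csf1r, which drives the reporter of the sort, was at 949, 891 and 889 CPM in the MHC-II-low cells, above the members in each infarct. After TMM scaling its log2 fold change was 0.0019 and did not pass (adjusted p = 0.979). Among complement and Fc receptors, 4 were higher and 3 lower of 10, led by Fcgr4 (0.76) and Itgam, or CD11b (-0.70).

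Of 18 transcription factors of macrophage states, 8 were higher and 5 lower (median 0.16). Batf3, a partner of interferon-regulatory factors, was at 81.2, 66.1 and 60.5 CPM against 27.8, 21.1 and 22 CPM (log2 fold change 1.69, SE 0.06, adjusted p = 5.23e-07). Pparg (0.97), Runx3 (0.85), Irf4 (0.84), Nr4a1 (0.47) and Irf5 (0.42) were higher. The lysosomal and osteoclast regulators Tfec (-1.40) and Mitf (-0.44) were lower, as were Bhlhe41 (-1.24) and Hif1a (-0.39). Glycolysis and hypoxia genes were lower in 5 of 12 and higher in none (median -0.27), for example Pgk1 (-0.54) and Pkm (-0.38).

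Of the 18 growth factors and integrins that the study was concerned with, 6 were lower and 3 higher (median -0.24). The matrix genes Ecm1 (81.4, 67.5 and 64.5 CPM against 202, 149.8 and 193 CPM, log2 fold change -1.21, SE 0.07, adjusted p = 8.94e-06) and Emilin2 (-0.93) and the platelet-derived growth factor Pdgfa (-0.61) were lower. Itgax, Pdgfb (0.36) and Tgfb1 (0.21) were higher.

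Cell cycle genes were lower in 9 of 12 and higher in none, with a median of -1.06. The proliferation antigen Mki67 was at 27.5, 23 and 36.9 CPM against 68.4, 55.1 and 88 CPM (log2 fold change -1.14, SE 0.06, adjusted p = 3.06e-06), and Top2a (-0.97), Stmn1 (-0.92) and cyclin B1, Ccnb1 (-1.78), fell alike. The 12 immediate-early and heat-shock genes were all higher, with a median of 0.51. The heat-shock gene Hspa1a was at 117, 288 and 57 CPM against 59.2, 113 and 31.4 CPM (log2 fold change 1.23, SE 0.09, adjusted p = 1.80e-05), so the difference between infarcts was wider than that between the groups, yet the members were higher within each. Egr1 (0.79) and Fos (0.46) rose in each heart.

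Markers of other cell types were counted in the same sums. The summed level of 16 dendritic cell genes was 4861 to 5697 CPM in the members, 3880 to 4779 in the MHC-II-low cells and 8383 to 9836 in the dendritic cells. In the members and the MHC-II-low cells most of this was Cst3, at 5004 ± 434 and 4211 ± 458 CPM. The sums therefore say little about the other markers. Of 12 genes tested against the MHC-II-low cells, 9 were higher and 1 lower. Flt3 was at 7.89, 7.38 and 4.05 CPM against 0.876, 0.704 and 0.482 CPM (log2 fold change 3.35), Napsa at 123, 110.3 and 97.7 CPM against 26.3, 24.6 and 24.7 CPM (2.26), and Clec9a (2.95), Klrd1 (3.09) and Clec10a (1.56) were higher, whereas Cd24a was lower (-2.24). No dendritic marker was at 0 in the members of any library. After cells with a UMI of Flt3, Xcr1, Clec9a, Zbtb46 or markers of lymphocytes, fibroblasts and endothelium had been taken out, 2012 genes were called, of which 1968 were among the 2324.

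B cell genes summed to 315 to 360.0 CPM in the members against 188 to 210 in the MHC-II-low cells, of which 3 of 5 tested were higher and 1 lower. Most of these sums was Ighm, at 266, 294 and 286 CPM against 149, 162 and 144 CPM (1.03). Cd79b was at 41.5 ± 6.54 against 27.6 ± 1.96 CPM (0.72). T and NK cell genes summed to at most 12.3 CPM in the members, with 4 to 7 of 11 markers at 0. For fibroblasts the sums were 228 to 245 CPM against 231 to 287, and 0 of 7 tested genes passed (4964 of all 11628 genes had an unadjusted p under 0.05). Endothelial sums were 20.6 to 36.2 CPM against 21.4 to 34.7, with Pecam1 (1.08) among 2 higher genes of 6. Granulocyte sums were 56.9 to 90.2 CPM against 57.3 to 82.9, with S100a9 higher (2.27) and Mmp9 lower (-2.41). The S100a9 value ranged from 0.14 to 3.54 over the alternatives, and its call was lost without infarct 2, with no replicate block, with the top and bottom 50% and with C1q at 60 per 10000. With the cells of highest doublet score removed before ranking, 2284 genes were called. Beyond these removals, the part of other cell types in the results was not tested.

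Across 4 bins of equal size of the class II ranking in each library, some of these genes changed in order from bin to bin. Ciita went from 5.02, 2.88 and 3.79 CPM in the lowest bin over 39.7, 15.2 and 19.98 CPM in the second and 115, 66.4 and 72.9 CPM in the third to its level in the members. Ccr2 rose in the same order in each heart, with 494, 283 and 327 CPM in the second bins and 923, 510 and 579.9 CPM in the third. Ctsd fell through 2678, 2529 and 2477 CPM to 1687, 1846 and 1675 CPM. For Arg1 the third bin of infarct 1 was still at 437 CPM against 65.8 in its members. Of the 1145 higher genes, 289 (25.2%) rose from bin to bin in all 3 infarcts, and of the 1179 lower genes 430 (36.5%) fell in that way. Over all genes tested, 2.49% rose and 5.01% fell in order. The genes were called on the highest against the lowest of these bins, so their order is fixed in part by that choice and nothing is read from the excess.

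**Figure D4:**
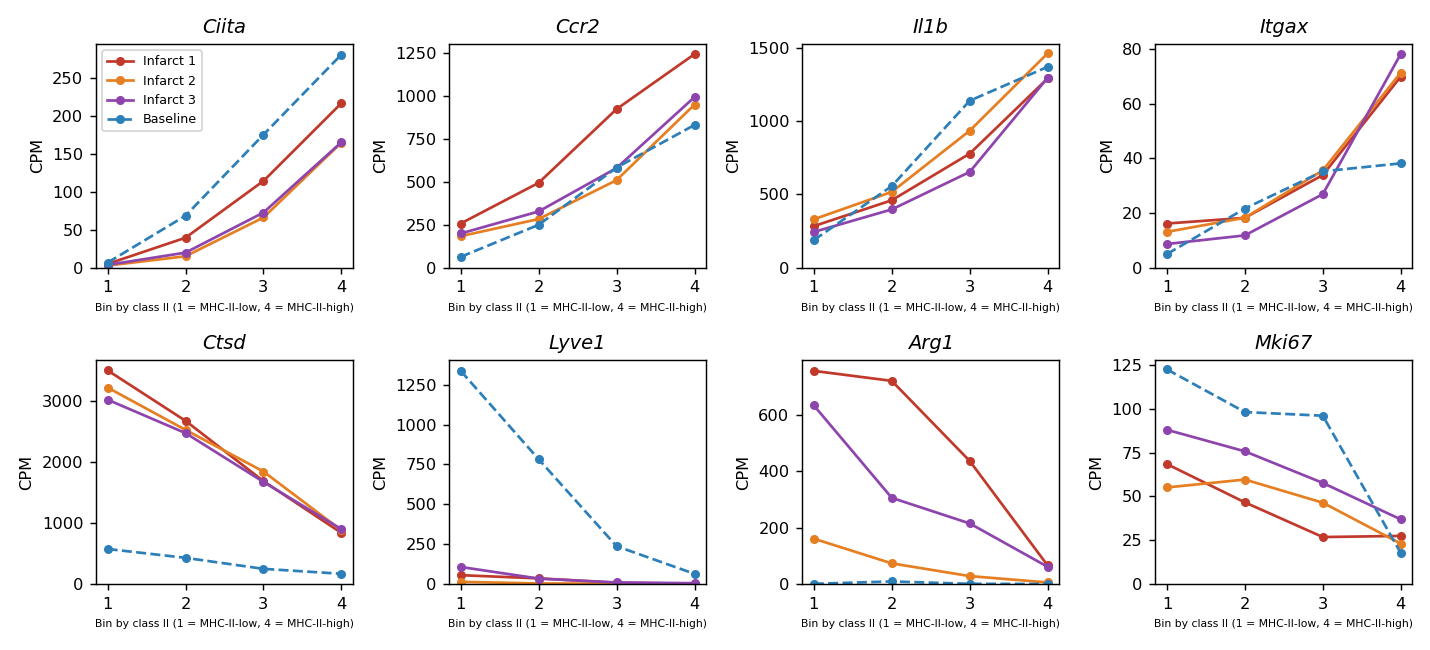
CPM of 8 genes in the 4 bins of the class II ranking (1 MHC-II-low, 4 MHC-II-high) in each infarct (solid lines) and in the baseline library (dashed line), on linear axes that start at 0. Ciita, Ccr2, Il1b and Itgax rise and Ctsd, Lyve1 and Arg1 fall in order in every infarct, while Mki67 does not fall in order in all of them.

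Against dendritic cells of the same hearts, the members were higher in macrophage, processing and chemokine genes and lower in H2-O and H2-DM genes. The dendritic cells were the 366, 197 and 210 cells of infarcts 1, 2 and 3 with a Cd209a UMI and C1q below the limit. The members had been chosen the opposite way on both. Differences in macrophage and dendritic cell genes are therefore not independent of that choice. Their median class II levels were 316, 360 and 348 UMIs per 10000, side by side with 298, 309 and 278 in the members. Of 11000 genes tested, 13.8% were higher and 14.9% lower in the members. Cd74 was at 23915, 25296 and 27440.0 CPM in the dendritic cells (log2 fold change 0.15, adjusted p = 0.00523), a call that was lost under 6 of 12 alternatives, among them leaving out infarct 1 or infarct 2.

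The rest of the class II apparatus was lower in the members, in 6 of 7 genes. H2-Oa was at 7.81, 6.69 and 4.87 CPM against 219, 253 and 192 CPM in the dendritic cells (log2 fold change -5.04, SE 0.11, adjusted p = 8.66e-09), and H2-DMb2 at 9.47, 7.44 and 7.64 CPM against 204, 221 and 156 CPM (log2 fold change -4.50, SE 0.12, adjusted p = 1.82e-08). H2-Ob followed with -3.31. H2-DMa (-0.45), H2-DMb1 (-0.46) and Ciita (409, 298 and 329 CPM in the dendritic cells, -0.86) differed by less. Irf8 was higher in the members (1.16).

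Processing enzymes went the other way, with 8 of 9 higher and none lower in the members (median 0.81). Lgmn was at 1097, 1163 and 1042 CPM against 214, 212 and 220.0 CPM (log2 fold change 2.41, SE 0.06, adjusted p = 1.42e-08), Ctsb differed by 2.15 and Ctsd by 1.77. Core macrophage genes were higher in 10 of 12 (median 2.29), including Adgre1 (3.62), Maf (3.77), Mertk (3.13), Cx3cr1 (2.55) and Csf1r (2.03). Chemokine ligands were higher in 12 of 13 (median 2.25), such as Ccl12 at 387, 484 and 363 CPM against 44.6, 12.9 and 10.0 CPM (log2 fold change 4.13, SE 0.31, adjusted p = 7.45e-06) and Ccl8 (3.94). Reparative and lipid genes were higher in 16 of 21 (median 1.47), led by Apoe (4.32).

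The 6 genes named as highest against dendritic cells were Rapsn (34.2, 44.7 and 48.5 CPM against 0.863, 1.08 and 2.00 CPM, log2 fold change 5.09, SE 0.22, adjusted p = 2.71e-07), the organic anion transporter Slco2b1 (4.94), the cardiac troponin gene Tnnt2 (4.90), the integrin chain Itga9 (4.80), Ms4a7 (4.74) and the collagen gene Col14a1 (4.60). The 6 lowest were the lectin Cd209d (0.0789, 0 and 0.0749 CPM against 78.8, 103 and 34.5 CPM, log2 fold change -10.07, SE 0.30, adjusted p = 3.17e-08), Cd7 (-7.98), AC140186.1 (-7.10), Klrd1 (-6.82), the collagen receptor Ddr1 (-6.21) and Cyp7b1 (-6.15). Of 13 dendritic cell genes, 11 were lower in the members and 1, Cst3, higher (0.22). That call was kept under 8 of 12 alternatives and lost, among others, without infarct 2. Flt3 differed by -3.86.

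Ccr2 was nearly as high in both, at 1242, 949 and 993 CPM in the members and 1115, 850.1 and 911 CPM in the dendritic cells (log2 fold change 0.21, adjusted p = 0.00574), and the difference turned to -0.070 when cells with markers of other types were removed. The call was also lost with any 1 infarct left out. Il1b was lower in the members (log2 fold change -0.70, SE 0.13, adjusted p = 0.0028), as were Irf4 (-2.60), Tnfsf9 (-1.59) and the CD28 ligand Cd80 (-1.26), whereas Cd72 was higher (1.06). Batf3 (0.23, adjusted p = 0.147) and Runx3 (-0.30, adjusted p = 0.048) did not pass.

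Against the Gpnmb-positive macrophages of the same hearts, the members were higher in class II and lower in reparative genes. Those comparators were 1210, 1332 and 1427 C1q-positive cells with at least 2 Gpnmb UMIs. Of 11570 genes tested, 16.3% were higher and 15.5% lower in the members. All 22 reparative and lipid-handling genes were lower, with a median of -1.35. The comparator was chosen on Gpnmb, a gene of the same programme, so this count is not independent of that choice. Spp1 was at 196, 250.0 and 237 CPM against 4066, 3964 and 2617 CPM (log2 fold change -3.92, SE 0.13, adjusted p = 6.58e-10), and the lipid carrier Fabp5 at 110.1, 144 and 147 CPM against 2064, 2095 and 1763 CPM (log2 fold change -3.87). Trem2 (-1.33) and the galectin Lgals3 (-1.57) differed by less.

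Ccr2 (297, 169 and 219.6 CPM in the Gpnmb-positive cells, log2 fold change 2.26, SE 0.07, adjusted p = 4.47e-10) and Ciita (40.3, 20.7 and 30.2 CPM, log2 fold change 2.63, SE 0.09, adjusted p = 8.62e-10) were higher in the members. So were Cd86 (1.30), H2-DMb1 (2.31) and H2-DMa (2.02). The 6 highest by the naming rule were Mgl2 (4.05), Retnla (3.57), Cd74 (2.88), Clec4b1 (2.88), Il1b (2.77) and Plbd1 (2.67). Apart from Retnla, all these higher genes also rose from bin to bin of the class II ranking in every infarct. Their p-values therefore do not separate a difference from Gpnmb-positive cells from the choice of members by class II. The other lowest genes beside Spp1 and Fabp5 were Cd5l (-3.86), the mannose-6-phosphate receptor Igf2r (-3.79), podoplanin, Pdpn (-3.66), and the iron exporter Slc40a1 (-3.58). Antigen processing genes were lower in 7 of 9, with Ctsd at 838, 879.7 and 899.8 CPM against 6624, 5514 and 5404 CPM (log2 fold change -2.72, SE 0.07, adjusted p = 8.18e-11). The Gpnmb-positive cells had median depths of 11722, 11124 and 11207 UMIs, above the 8411, 8176 and 8318 of the members in each infarct.

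Interferon-gamma genes were higher in 11 of 13 and class I genes in 10 of 14, with none lower in either list. Immediate-early and heat-shock genes were again higher in all 12 (median 0.82), with Egr1 at 533, 426 and 629.7 CPM against 112, 124 and 161 CPM (log2 fold change 2.02, SE 0.07, adjusted p = 8.97e-10). Resident genes were lower in 7 of 12 and higher in 1, Retnla.

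The same ranking was applied to the baseline library, which the rule had not used, and gave 1614 members of 6457 eligible cells. Its lowest member held 256 class II UMIs per 10000, above the infarct limits, and its median class II level over all eligible cells, 121, exceeded those of the infarcts. Of the genes called higher in infarct members with at least 50 UMIs in the baseline sums, 904 of 1070 (84.5%) were also higher in the baseline members than in the baseline MHC-II-low cells. Of those called lower, 1026 of 1076 (95.4%) were lower. Over all 10431 such genes, 34.8% were higher and 65.2% lower. These baseline ratios were of CPM without TMM scaling, and their median over all such genes was -0.12. The log2 changes at baseline and in the infarcts correlated with r = 0.74 and rho = 0.62 across 10430 genes, which are not independent replicates and share the ranking by class II.

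**Figure D5:**
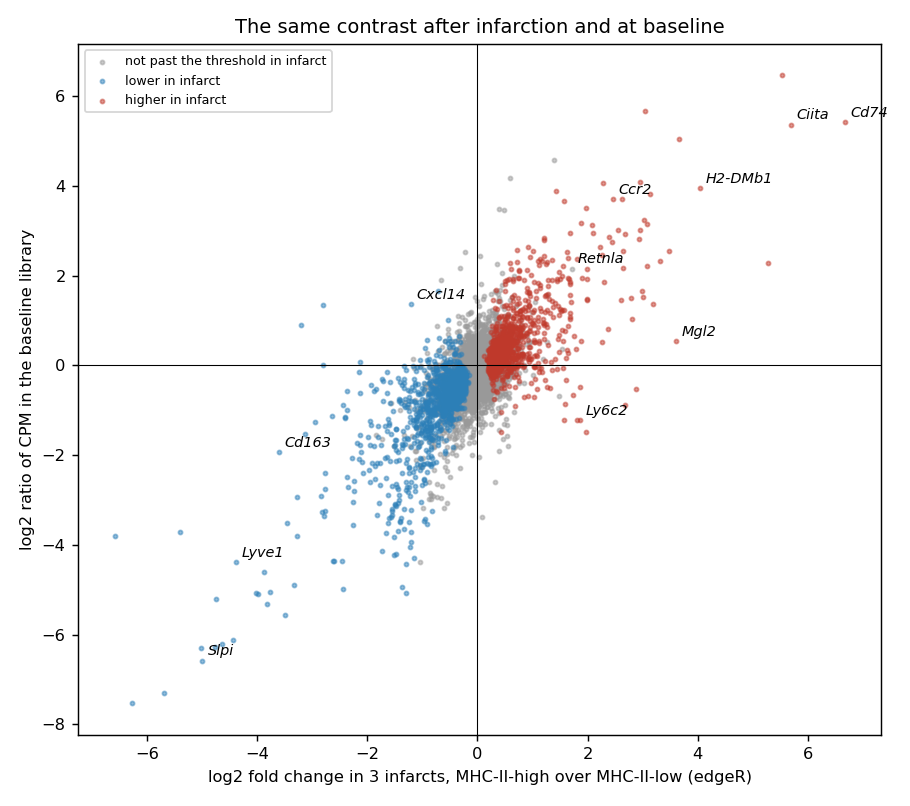
Each point is a gene, with its log2 fold change of members over the MHC-II-low cells in the 3 infarcts on the horizontal axis and the log2 ratio of the same 2 groups in the 1 baseline library on the vertical axis, coloured by the call in the infarcts. The fold change was TMM scaled and the baseline ratio was not. Ciita and Ccr2 lie at the upper right and Lyve1 at the lower left, whereas Ly6c2 (1.87 in the infarcts, -1.22 at baseline) and Cxcl14 (-1.21 and 1.37) lie in opposite quadrants.

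Members of the infarcts were lower in resident genes and higher in monocyte and type I interferon genes than members of the baseline library. No test was possible with 1 baseline library; a gene was counted as different when it stood at 20 CPM or more in either, its mean ratio reached 2-fold and all 3 infarcts lay on the same side. By that rule 2.46% of 6207 genes were higher and 7.65% lower in infarct members, with a median log2 ratio of -0.22, so smaller ratios below that median carry little weight. Scaling by TMM moved the median to 0.06 and gave 323 higher and 226 lower in place of 153 and 475.

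Of 9 resident genes measured at that level, 8 were lower after infarction and none higher (median log2 ratio -2.98). Lyve1 was at 2.53 ± 2.24 CPM (mean ± SD, n = 3) in infarct members and 63.7 CPM (95% interval 58.7 to 69) at baseline, where the exact Poisson interval covers counting error only. Cd163 was at 2.66 ± 1.57 CPM against 268 CPM (95% interval 258 to 279), and was seen in 43.2% of baseline members and 0.619%, 1.16% and 1.75% of infarct members. At baseline 25% of dendritic cells, which should lack it, held a Cd163 UMI, and after thinning the shares were 8.18% of these and 26.5% of members, at median depths of 10352.5 and 6002.5 UMIs. The baseline members therefore lay above a background that was itself high. Mgl2, which rose with class II inside the infarcts, was at 88.9 ± 23.1 CPM in their members but 1034 CPM (95% interval 1013 to 1054) at baseline (log2 ratio -3.54), and Retnla at 37.8 ± 9.57 CPM against 1086 CPM (95% interval 1065 to 1107) (-4.84). Folr2 (-2.72), F13a1 (-2.98), Pf4 (-2.57), Mrc1 (-1.73) and Cd36 (-4.39) were also lower in the 3 infarcts.

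Monocyte genes were higher in 5 of 10 and lower in none (median 1.29). Ly6c2 was at 56.3 ± 10.5 CPM in infarct members against 6.47 CPM (95% interval 4.95 to 8.31), and Plac8 at 157 ± 99.3 CPM against 34.1 CPM (95% interval 30.5 to 38.1), with infarct 1 highest. Ccr2 CPM differed by less than 2-fold, 1061 ± 158 against 830.4 CPM (95% interval 812 to 849). The share of members with a Ccr2 UMI was 48.3% at baseline (39.5% after thinning) against 91.3%, 87.7% and 88.3% in the infarcts.

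Type I interferon genes were higher in 7 of 12 (median 1.30), for example Irf7 at 144 ± 35.7 CPM against 28.8 CPM (95% interval 25.5 to 32.5) and Isg15 at 159 ± 31.4 CPM against 52.4 CPM (95% interval 47.9 to 57.2). Of the interferon-gamma list 1 of 10 was higher and none lower (median 0.21). Ccl5 (3.89), Cxcl9 (3.25), Cxcr3 (2.85) and Cd72 (1.69) were higher in all 3 infarcts. Cd86 was lower at 165 ± 9.15 CPM against 367 CPM (95% interval 355 to 379.7), as was Cd83 (-1.20). Reparative genes were higher in 9 of 20 and lower in 4 (median 0.69), with Spp1 at 228 ± 28.2 CPM against 15.3 CPM (95% interval 12.9 to 18) and, among proteases, Ctsd at 872 ± 31.5 CPM against 167 CPM (95% interval 159 to 176). Spp1 was at 3549 ± 809 CPM in the Gpnmb-positive cells of the infarcts. The part of background in the members' Spp1 value was not tested.

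Arg1 had no UMI in the baseline members (95% interval 0 to 0.391 CPM) and was at 65.8, 5.45 and 61 CPM in the members of infarcts 1, 2 and 3. An Arg1 UMI was found in 11.8%, 3.44% and 8.18% of infarct members and in 9.29%, 2.03% and 8.57% of dendritic cells of the same hearts (5.22%, 0.938% and 3.12% and 2.82%, 0.515% and 3.00% after thinning), at median depths of 8411, 8176 and 8318 UMIs and 9841, 9653 and 9773.5 UMIs. The share in infarct 3 is at that background, and no gain of Arg1 in the members is read from these values. Saa3 was at 0.636 CPM (95% interval 0.233 to 1.38) at baseline. The class II genes themselves differed by less. Cd74 was at 27147 ± 529 CPM in infarct members and 30556 CPM (95% interval 30444 to 30667) at baseline, H2-DMb1 at 719 ± 9.84 CPM and 788 CPM (95% interval 769.8 to 806), and Ciita at 183 ± 29.9 CPM and 281 CPM (95% interval 271 to 292) (log2 ratio -0.62). None of the 3 class II genes at 20 CPM reached 2-fold. Il1b was at 1350.4 ± 97.8 CPM and 1371 CPM (95% interval 1348 to 1395). Heat-shock genes were lower after infarction, with Hspa1a at 154 ± 119.8 CPM against 582 CPM (95% interval 567 to 598) and Hspa1b at 99 ± 86.2 CPM against 427 CPM (95% interval 414 to 440.4). Infarction, surgery, pooling of hearts and the preparation of the single baseline library cannot be told apart in these values.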

How the data were processed

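Single-cell libraries of sorted EGFP+ Ly6G- cardiac cells (10x Genomics 3′ v3.1) were deposited as raw UMI counts per gene and barcode, produced by the authors on mm10 with Cell Ranger (3.1.0 per the file headers) for barcodes called as cells. Members and gene lists were chosen with earlier results of these data known. A cell needed 500 to 40000 UMIs and over 200 genes. Counts of members (top 25% by class II) and of each comparator were summed per infarct library. The quasi-likelihood test of edgeR 4.0.16 (R 4.3.3) was run on these sums after TMM scaling and filterByExpr, with a term for the library as a replicate block, and genes with a Benjamini-Hochberg adjusted p under 0.01 were called. Both sums of a pair came from the same heart, which is the pairing. The 9 genes of the rule and 13 mitochondrial genes were left out of library sizes and tests. Cells were never treated as replicates.

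Total counts were 88157753 to 97944428 UMIs per infarct library. Baseline values, from 1 library, carry exact 95% Poisson intervals that cover counting error only (scipy 1.17.1). Named genes were the 15 highest and 15 lowest log2 fold changes (6 and 6 in the other comparisons) among called genes at 20 CPM or more in the higher group that moved alike in all 3 libraries, sex-linked genes not ranked. Any gene of the 26 lists could be named as well. A few genes that the rule or lists would name are not reported here. Dpm1 and Mocs3 were named because their promoters matched. Doublet scores came from Scrublet (scanpy 1.11.5), whose automatic threshold called 0.0198% of cells or fewer and so did not work. Doublets were kept, and an alternative removed the highest-scoring 8.10% to 8.63% of cells. Scripts were tested on simulated data (Python 3.11.15, numpy 2.4.6, pandas 2.3.3). Plots were drawn with matplotlib 3.10.9. Alternatives tried were DESeq2 1.42.0 size factors and Wald test, library size alone (added after the data were seen), no filter, no block, each infarct left out, cells thinned to 2000 UMIs, removal of doublets, of cells over 10% mitochondrial UMIs, of cells with markers of other types and of cycling cells, ranks within 10 bins of depth, the top and bottom 10% and 50% in place of 25%, C1q at 60 per 10000, 0 Gpnmb UMIs, and rule genes kept in the library size.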

Additional observations from a re-analysis of the deposited data

Results flagged for a closer look

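Of the 140 genes of the main comparison named in the text, 13 moved the other way in the baseline library than in the infarcts when members were set against the MHC-II-low cells. The difference between infarct and baseline was not tested, because the baseline is 1 library. The baseline ratios were of CPM without TMM scaling, unlike the infarct fold changes. Their median was -0.12 over 10431 genes, so signs of baseline ratios near it depend on the scaling. For 9 of the 13 the counting intervals of the 2 baseline groups did not overlap.

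Some genes that were higher in infarct members than in the MHC-II-low cells were lower at baseline, among them the monocyte genes Ly6c2 and Plac8 and the chemokine Ccl5. Other genes of these kinds kept their direction, with baseline log2 ratios of 3.71 for Ccr2, 0.55 for Ms4a4c and 1.37 for Cxcl9. Ly6c2 had a log2 ratio of -1.22 at baseline against 1.87 in the infarcts. Plac8 was at -0.85 against 1.59. Ccl5 was at -1.22 against 1.81. The lectin Clec10a was at -1.22 against 1.56 and the factor Irf4 at -0.70 against 0.84. Smaller values of the same kind were those of Cd40 (-0.49 against 0.48) and Tnf (-0.42 against 0.48). Cxcl2 (-0.065 against 0.31) lay above the baseline median of all genes, so no direction is given for it at baseline. The infarct call was kept under only 10 of 19 alternatives for Irf4 and 11 of 19 for Cd40. Irf4 was also scarce in the infarcts, at 6.21 ± 2.32 CPM in the members against 3.84 ± 1.73 CPM.

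In the other direction, Cxcl14 was at 1.37 at baseline and -1.21 in the infarcts. Counting intervals of the baseline groups overlapped for Irf1 (-0.13 against 0.40), Irf7 (-0.13 against 0.42), Cd24a (0.072 against -2.24) and Ighm (-0.015 against 1.03), so no direction is given for these at baseline.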

How the results depend on the processing

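With no replicate block the count of genes changed against the MHC-II-low cells was 974 in place of 2324, and 1961 in place of 3683 against Gpnmb-positive macrophages. The unblocked fit also took the call from 52 of 140 named genes and reversed none, and all 974 of its genes were called with the block. Of the other settings, the DESeq2 Wald test gave 1514 and 2174, and thinning to 2000 UMIs gave 1345, 1654 (against dendritic cells, in place of 3157) and 1914. Removing cells with markers of other types gave 1811 against dendritic cells, of which 73 to 137 per library remained. Leaving out each infarct in turn gave 1401 to 2839 genes against the MHC-II-low cells, 2550 to 3190 against dendritic cells and 2728 to 3199 against Gpnmb-positive macrophages.

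Over all alternatives against the MHC-II-low cells, 2469 values of named genes kept direction and side of the threshold, 135 lost the call, 17 gained it and 16 reversed. Retnla, not called, turned to -2.37 and passed the threshold with the top and bottom 10%, and the other 15 did not pass it. Csf1r, at 0.0019 and not called, turned to -0.134 with library size alone, -0.0063 with no filter, -0.0049 without cells rich in mitochondrial UMIs, -0.0309 with ranks within depth bins, -0.0273 with 10%, -0.0213 with 50%, -0.0432 with more C1q, -0.0113 with 0 Gpnmb UMIs and -0.0579 without cycling cells, and ranged from -0.0416 to 0.0279 with 1 infarct left out. Dpm1, not called, turned to -0.0575 with library size alone, and ranged from -0.00157 to 0.127 with 1 infarct left out. Mocs3, not called, turned to 0.163 after thinning and 0.143 with 50%, and ranged from -0.0723 to 0.0417 with 1 infarct left out. Against dendritic cells, Ccr2 reversed to -0.070 with cells of other types removed, and 18 values lost the call. Against Gpnmb-positive macrophages all 252 values kept theirs. The infarct and baseline count of 628 ranged from 549 to 697. The cause of these changes was not tested, apart from fewer samples or UMIs by construction. Genes at a few CPM, such as Lyve1 in infarct 2, are limited by depth, and the baseline by its single library.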
